A study of Mus musculus with 10 samples.

Results

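The genes described here carry out the synthesis, elongation and desaturation of fatty acids. They are 10 of the 46983 genes in the count table: Acly, Acaca and Fasn for synthesis, Elovl5 and Elovl6 for elongation, Scd1, Scd2, Fads1 and Fads2 for desaturation, and Srebf1 as the regulator. They were chosen by their role in the pathway, with the diet differences of these libraries already known, above all that of Scd1, so every difference between the diets is given below as a description of these 10 genes. Acly splits cytosolic citrate into acetyl-CoA, Acaca turns acetyl-CoA into malonyl-CoA, and Fasn builds palmitate from both. The elongases then lengthen the chain at the endoplasmic reticulum, the stearoyl-CoA desaturases Scd1 and Scd2 place a first double bond in saturated chains, and Fads1 and Fads2 place the double bonds of polyunsaturated fatty acids. In liver and adipose tissue this program is known to be driven by the transcription factor SREBP-1c, a product of Srebf1, and to be held down by dietary polyunsaturated fat.

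The study asked how a diet that raises ketone bodies in blood alters gene expression in endothelial cells (ECs) of the mouse heart. Male wild-type C57BL/6J mice were 8 weeks old when they were put on a control diet with 11.6% of its calories from fat or on a ketogenic diet with 89.5% of its calories from fat, and hearts were taken after 14 days. Cardiac ECs were pulled out of the digested heart with magnetic beads coated with CD31 antibody, and RNA was sequenced in 5 libraries per diet, numbered 1 to 5. According to the paper, each diet was at first offered alongside standard chow and then fed alone. No transgene, deletion or treatment other than the diet is described for these mice. No label states outright that each library came from a separate mouse, so the p-values below measure the spread between these libraries. Because the RNA came from bulk cells, fewer cells of a type and less RNA per cell cannot be told apart.

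Between 10885154 and 12710861 reads per library were counted on genes. The 9 endothelial markers, Cdh5 the most abundant, summed to 4780 to 5102 CPM (counts scaled to the same total in every library) on control diet and to 4636 to 5143 on ketogenic diet, and none of them passed the test between the diets. Counts of abundant genes had a ceiling, described below. Cdh5 had 7356 to 7571 reads per library, a narrower spread than that of the totals, whereas Kdr, named after its values had been seen, had 7281 to 9501. Sums of abundant markers may therefore understate differences in cell content. Reads of other cell types were present as well. The 9 cardiomyocyte markers, with Actc1 in the lead, summed to 425 to 571 CPM on control and 513 to 761 on ketogenic diet, 8 of 9 had a positive log2 fold change (median 0.33), and none passed. Macrophage markers, led by Cd14, spread from 131 to 490 CPM on control and from 135 to 269 on ketogenic diet. Of 6 tested, 4 had a negative and 2 a positive log2 fold change (median -0.39), Cd14 among the positive ones, and none passed. Adgre1, named after its values had been seen, had 24 to 2198 reads per library. Lymphocyte markers summed to 154 to 237 and to 142 to 163 CPM, with 3 of 6 log2 fold changes positive and 3 negative (median -0.11). Of the 6, 1 passed, the B cell gene Cd79a, which fell (log2 fold change -0.46, adjusted p = 0.0221). The other negative ones were the B cell genes Cd79b (-0.30, adjusted p = 0.179) and Ms4a1 (-0.53, adjusted p = 0.110). The 3 positive ones were the T and NK cell genes Cd3e, Cd3g and Nkg7. These 5 genes were named after their values had been seen. The part of macrophage and lymphocyte RNA in the differences below was not tested. Adipocytes, in which several of the 10 genes are abundant, left almost no trace, since their 8 markers summed to 1.21 to 2.66 CPM on control and 1.27 to 3.80 on ketogenic diet, Plin1, Lep and Retn had at most 3 reads in any library, and Cidea, with 6 to 38 reads, was the single one that could be tested (log2 fold change 1.08, adjusted p = 0.164). Smooth muscle and pericyte markers (Rgs5) had the largest sum after the endothelial ones, 2212 to 2371 CPM on control and 2157 to 2399 on ketogenic diet. Fibroblast markers (Dcn) summed to 609 to 691 and to 567 to 751 CPM, erythroid (Alas2) to 263 to 315 and to 293 to 309, and Schwann cell (Cnp) to 132 to 164 and to 129 to 159. All of these overlapped between the diets, and Sox10 of the last list had at most 2 reads. Rgs5 had 7457 to 7691 reads per library, so the ceiling may bear on its overlap. The part of RNA from these cell types in the differences below was not tested either.

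The diets were compared with edgeR's quasi-likelihood test on all 15949 genes with enough reads, and a gene was called when its p-value, adjusted by Benjamini-Hochberg over all of them, was under 0.05. Normalized counts are reads scaled to a common library size, and log2 fold changes are ketogenic over control, so that a negative value means less RNA on ketogenic diet. All 10 genes had enough reads to be tested. One fell, Scd1, and one rose, Fads1, so 2 of 10 were called, where 1.34% of all genes tested were called, 0.527% lower and 0.809% higher on ketogenic diet. The normalized counts of the diets did not overlap for 4 of the 10 (Scd1 and Fads2 lower, Fads1 and Elovl6 higher), against 4.34% of all genes, and 5 of the 10 had an unadjusted p under 0.05, against 17.8% of all genes. Log2 fold changes were positive for 7 and negative for 3 of the 10 (Acly turned negative with upper quartile factors), and their median of 0.08 lay beside a median of -0.0057 over all genes. Nothing is read from these shares about the 10 genes, because they were chosen with this contrast in view.

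Acly, the source of cytosolic acetyl-CoA, was the most evenly expressed of the 3 synthesis genes. Its normalized count was 4843 ± 171 (SD, n = 5) on control and 4861 ± 95.8 on ketogenic diet, and the log2 fold change of 0.0053 had an approximate 95% interval of -0.05 to 0.06 (adjusted p = 0.948). The sign of so small a value was not fixed and turned negative under 6 of the 22 alternative settings. Acaca, which makes the malonyl-CoA that feeds chain growth, had few reads, 85 to 130 per library. On control diet its normalized counts in libraries 1 to 5 were 116, 86.8, 122, 109 and 85.5, and on ketogenic diet 125, 135, 128, 124 and 117. All but 1 of the 5 ketogenic libraries lay above every control library, but the difference did not pass the test (log2 fold change 0.28, SE 0.12, adjusted p = 0.264). Fasn, the multifunctional synthase, had normalized counts of 228 ± 29.1 on control and 251.6 ± 30.6 on ketogenic diet, with 1 control library above 4 of the 5 ketogenic ones (log2 fold change 0.14, SE 0.11, adjusted p = 0.534).

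Of the elongases, Elovl5 acts on polyunsaturated chains and Elovl6 on saturated and monounsaturated chains of up to palmitate length. Elovl5, per length the most abundant of the 10 genes, had 4485 ± 235 normalized counts on control and 4289 ± 45.2 on ketogenic diet (log2 fold change -0.06, SE 0.04, adjusted p = 0.365). Elovl6 was sparse. Its normalized counts on control diet were 111, 114, 114, 115 and 128 in libraries 1 to 5, and on ketogenic diet 165, 146, 219, 155 and 151. The groups did not overlap, the means being 116 ± 6.48 and 167 ± 29.6, and ketogenic library 3 stood well above the other 4 of its diet. The log2 fold change of 0.52 (SE 0.12) ranked 283 of 15949 genes by p and missed the threshold (adjusted p = 0.0592). It was called by DESeq2 (adjusted p = 0.0106) and by edgeR without ketogenic library 2 (adjusted p = 0.0387), but not under the other 20 alternatives. The log2 fold change was 0.43 with the cardiomyocyte marker score as a covariate (adjusted p = 0.270), 0.35 with the adipocyte score (adjusted p = 0.561) and 0.27 with limma on log2(RPKM + 1) (adjusted p = 0.0917).

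Scd1 makes oleate and palmitoleate from the saturated chains and showed the largest difference of the 10 genes. On control diet its normalized counts in libraries 1 to 5 were 1190.2, 1089, 1157, 1075 and 946, and on ketogenic diet 672, 638, 724, 556 and 677. The lowest control library was above the highest ketogenic library, and the mean went from 1092 ± 94.1 to 653 ± 62.4, a ratio of 0.599. The log2 fold change was -0.74 (SE 0.08, adjusted p = 0.0013), rank 8 of 15949 by p. Scd1 was called under all 22 alternative settings, with log2 fold changes from -0.79 to -0.68 and adjusted p-values from 3.40e-15 to 0.0428. With the cardiomyocyte marker score of each library as a covariate its log2 fold change was -0.73 (adjusted p = 0.0191), and leaving out any 1 library kept the adjusted p at or below 0.0056.

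Scd2, the isoform best known from brain, did not pass the test. Its normalized counts were 1888, 1437, 1875, 1596 and 1659 on control and 1756, 1722, 1970.4, 1915 and 1612 on ketogenic diet. Those ranges overlapped over most of their width, with means of 1691 ± 192 and 1795 ± 146 (log2 fold change 0.09, approximate 95% interval -0.07 to 0.24, adjusted p = 0.598). The other stearoyl-CoA desaturase genes were all but silent, Scd3 with at most 6 and Scd4 with 1 to 30 reads per library.

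Fads1, the delta-5 desaturase that completes arachidonate and eicosapentaenoate, rose on ketogenic diet. In control libraries 1 to 5 its normalized counts were 851, 719.8, 679, 700.1 and 687, and in ketogenic libraries 1076, 887, 1066, 884 and 1038. Every ketogenic library lay above every control library, although control library 1 came close to ketogenic library 4. The means were 727 ± 70.8 and 990.3 ± 96.7, the log2 fold change 0.45 (SE 0.08) and the adjusted p 0.0242, rank 92 by p. Fads1 was called under 14 of the 22 alternatives, with log2 fold changes from 0.42 to 0.54. The call was lost with the cardiomyocyte marker score as a covariate (0.54, adjusted p = 0.0568), with the adipocyte score, which rests on Cidea alone, as a covariate (0.52, adjusted p = 0.156), and without control library 2, 3, 4 or 5 or ketogenic library 3 or 5 (adjusted p between 0.0531 and 0.0671).

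Fads2, the delta-6 desaturase that takes the first step of the same route, lay on the other side. Its normalized counts in control libraries 1 to 5 were 338, 344, 270.2, 256 and 291, and in ketogenic libraries 247, 225, 229, 206 and 223. All 5 ketogenic libraries were below all 5 control libraries, with the lowest control library close to the highest ketogenic one. The log2 fold change was -0.41 (SE 0.10) and did not pass the threshold (adjusted p = 0.0673, rank 349). DESeq2 called it (adjusted p = 0.0119), and with the cardiomyocyte marker score as a covariate the log2 fold change shrank to -0.24 (adjusted p = 0.371).

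Srebf1 encodes SREBP-1a and SREBP-1c, whose control lies partly in the cleavage of the protein, which RNA does not show. Its normalized counts were 1149, 876, 946, 965 and 819.7 on control and 1131, 904, 1070.1, 839.7 and 1063 on ketogenic diet. Both diets spread over nearly the same range (log2 fold change 0.08, approximate 95% interval -0.12 to 0.27, adjusted p = 0.735).

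**Figure D1:**
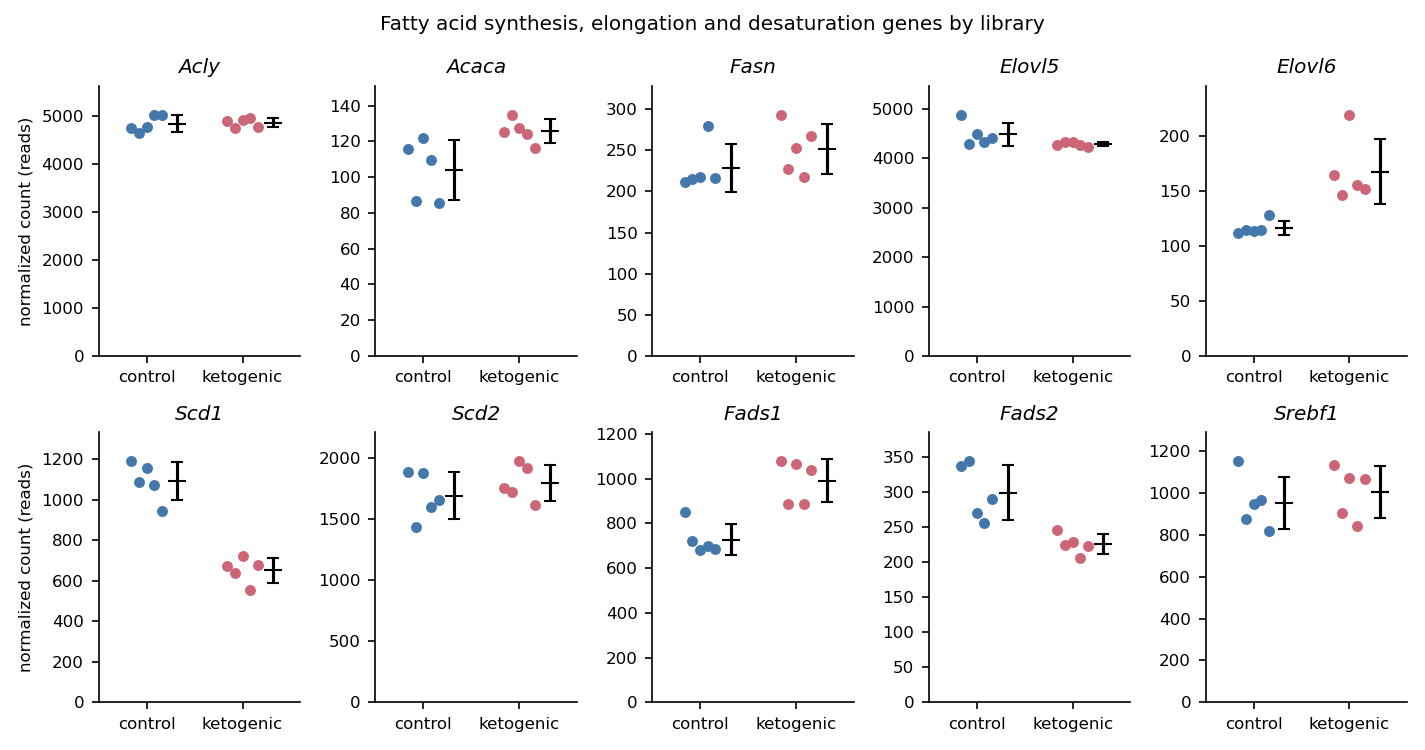
Normalized counts (reads, axis from 0) of the 10 genes in each library, control blue and ketogenic red, points in the order of library number, with the mean and SD (n = 5) as black bars beside them. Scd1 and Fads2 sit lower and Fads1 and Elovl6 higher in all 5 ketogenic libraries, while the other 6 genes overlap between the diets.

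**Figure D2:**
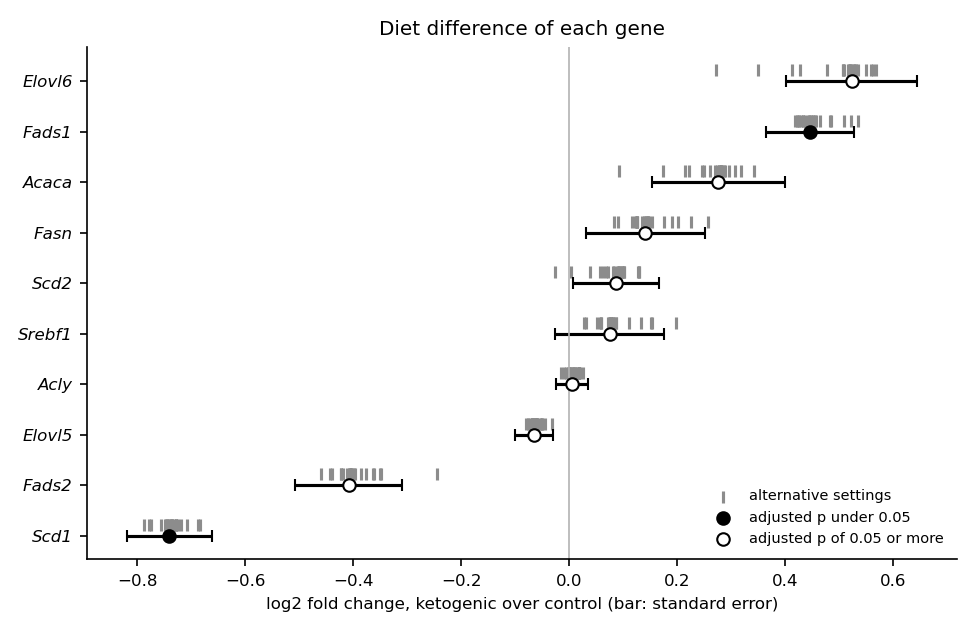
Log2 fold change of each gene, ketogenic over control, with its standard error as a bar; filled points have an adjusted p under 0.05 and the grey ticks give the values under the 22 alternative settings. Scd1 stays between -0.79 and -0.68 and Fads1 between 0.42 and 0.54, whereas the ticks of Acly and Scd2 reach both sides of 0.

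Levels of different genes were ordered per length, in the RPKM of the authors, which scale reads to the kilobases of a gene and to the reads counted in the library. On control diet Elovl5 led with 98.7 ± 5.0 RPKM, the 98.3rd percentile of the genes tested, ahead of Acly with 47.2 ± 1.55 and Scd2 with 26.5 ± 2.97. Scd1 (19.3 ± 1.64), Fads1 (17.97 ± 1.71) and Fads2 (17.0 ± 2.29) followed, and these neighbours did not differ beyond their spread. Srebf1 had 7.44 ± 0.950 RPKM. Fasn with 1.36 ± 0.166, Elovl6 with 0.889 ± 0.0513 and Acaca with 0.413 ± 0.0658 were at the low end, at the 22.1st, 15.9th and 7.05th percentile. Fasn, Elovl6 and Acaca were thus expressed far below Acly and below the desaturases named above. On ketogenic diet Fads1 (24.7 ± 2.39) came before Fads2 (12.9 ± 0.806) and Scd1 (11.6 ± 1.10). The order depends on the gene length. With the summed exon length of GENCODE release M21 in place of the length of the authors, Scd1 and Scd2 kept their levels, Srebf1 (14.4) moved ahead of Fads1 (12.9) and Fads2 (7.77) on control diet, and Acly reached 78.3.

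Pairs of genes that do related work were then set against each other inside each library, which removes the library's depth from the comparison; they were chosen with the diet differences known and carry no test. Ratios of reads are not per length, so they are compared between the diets and say nothing of which gene of a pair is the more abundant. Scd1 made up 41.6, 46.1, 41.0, 43.2 and 39.2% of the summed RPKM of Scd1 and Scd2 in control libraries 1 to 5, and 30.1, 29.5, 29.3, 24.7 and 32.1% in ketogenic libraries. Its share thus went from 42.2 ± 2.60% to 29.1 ± 2.75%, without overlap. The sum of both isoforms overlapped between the diets, at 45.7 ± 4.06 and 40.0 ± 2.44 RPKM. Fads1 had 2.52, 2.09, 2.51, 2.74 and 2.36 reads for each read of Fads2 on control diet, and 4.36, 3.94, 4.66, 4.29 and 4.65 on ketogenic diet. The gap between the highest control and the lowest ketogenic library was wider for this ratio (means 2.44 ± 0.238 and 4.38 ± 0.295) than its spread within either diet. Elovl6 held 2.54 ± 0.212% of the reads of both elongases on control and 3.75 ± 0.614% on ketogenic diet, and these ranges did not overlap either. Elovl5 used 58.3 to 66.0% of its possible read start positions, so depth may not be fully removed from this share. The share mainly restates the difference of Elovl6, which missed the threshold.

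**Figure D3:**
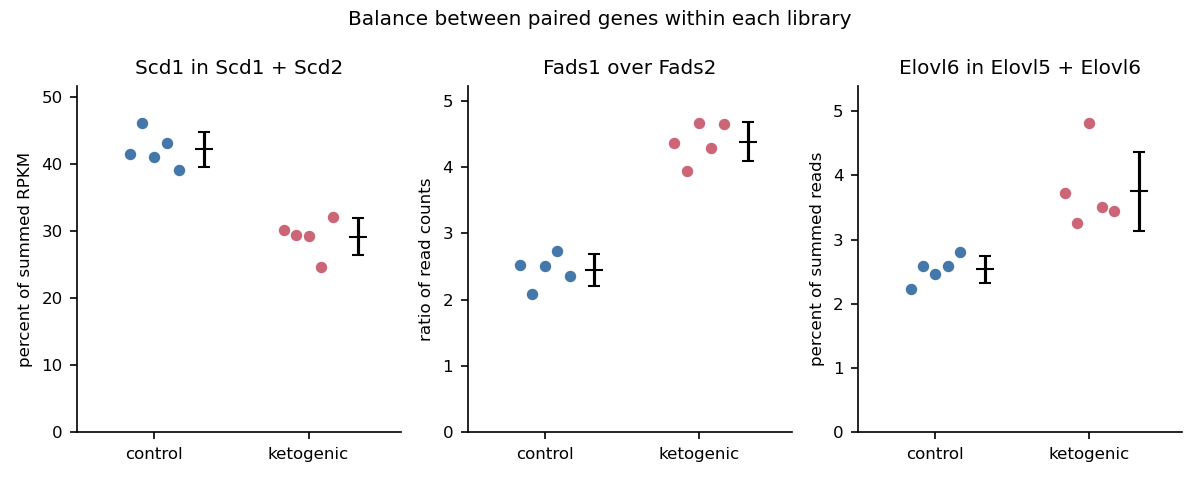
Balance of paired genes in each library (points, control blue and ketogenic red, mean and SD with n = 5 as bars): the percent of Scd1 in the summed RPKM of Scd1 and Scd2, the ratio of Fads1 to Fads2 reads, and the percent of Elovl6 in the reads of Elovl5 and Elovl6. The Scd1 share runs from 39.2 to 46.1% on control and from 24.7 to 32.1% on ketogenic diet, and the Fads1 to Fads2 ratio from 2.09 to 2.74 and from 3.94 to 4.66.

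Both pairs of desaturases are neighbours in the genome (GRCm38, GENCODE M21). Scd1 (ENSMUSG00000037071.2) spans chr19:44394455-44407879 on the minus strand and Scd2 (ENSMUSG00000025203.5) chr19:44293674-44306864 on the plus strand, 87.6 kb apart. Fads1 (ENSMUSG00000010663.4) spans chr19:10182888-10196877 on the plus strand and Fads2 (ENSMUSG00000024665.7) chr19:10062765-10101746 on the minus strand, so that they point away from each other with starts 81.1 kb apart. Each pair thus shares a neighbourhood, Scd1 falling while Scd2 did not pass, and Fads1 rising while Fads2 had a negative fold change that did not pass. Another 4 genes, Acly, Acaca, Fasn and Srebf1, lie on chromosome 11.

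Since Scd1 and Scd2 are close in sequence, a read of 50 bases cannot always be given to one of them. Their proteins have 355 and 358 residues and share 309 of them (86.3% of the aligned positions). Of the 4888 stretches of 50 bases in the Scd1 transcript, 223 (4.56%) also occur in Scd2, Scd3 or Scd4, and 205 of 5461 (3.75%) in the other direction, so reads that could belong to either gene come from a small part of each. The longest stretch of coding sequence that both hold without a difference has 147 bases, at coding positions 523 to 669 of Scd1 and 532 to 678 of Scd2, counted from the start codon, and is shown because reads inside it are uncertain between Scd1, which fell, and Scd2, which did not pass:
Scd1 and Scd2: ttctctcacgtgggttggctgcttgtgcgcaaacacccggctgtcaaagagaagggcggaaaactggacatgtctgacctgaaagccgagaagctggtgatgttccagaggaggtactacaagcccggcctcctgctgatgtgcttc
Fads2 shared 5 of 3291 such stretches (0.152%) with Fads1 or Fads3, and Fads1 shared none. The library kit does not keep the strand, which leaves the 34 exonic bases that Elovl6 shares with the antisense gene Gm35986 and the 109 that Srebf1 shares with Rai1 uncertain.

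The counts had a ceiling. Of 3770 genes that averaged 1000 reads or more, 3768 had no more than 1 read per possible start position and strand in every library. Elovl5 used 58.3 to 66.0% of its start positions and Acly 41.7 to 49.6%, so their counts may understate differences, whereas Scd1 used 5.85 to 11.7%, Fads1 6.82 to 11.8% and the other genes at most 18.4%. Counts corrected for used positions left the same number of the 10 genes called, 2.

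Whether libraries with more Scd1 also had more of the other 9 genes was examined after the mean of each diet had been subtracted, so that the diet difference played no part. Over the 10 libraries, Srebf1 followed Scd1 most closely (Pearson r = 0.84, exact permutation within the diets p = 0.00347, adjusted over 9 pairs 0.0313; Spearman rho = 0.83, p = 0.00868, adjusted 0.0781). Without the libraries farthest from the median of Scd1, control 5 and ketogenic 4, r was 0.69. Control library 1 was high, and control library 5 and ketogenic library 4 were low, in both genes. The adjusted p of r was 0.05 or more without control library 1, 4 or 5 or without any 1 ketogenic library, with r between 0.77 and 0.87 and adjusted p-values up to 0.306. Fads1 had r = 0.70 (exact permutation p = 0.0420, adjusted 0.189; rho = 0.72, p = 0.0424, adjusted 0.191) and r = 0.69 without the 2 farthest libraries, and passed after adjustment only without control library 3 (r = 0.83, adjusted p = 0.0219). The remaining 7 genes had r between -0.49 (Acly) and 0.48 (Acaca) with adjusted p-values of at least 0.371 by exact permutation. For Scd2, r was 0.20 with all libraries and 0.77 without the 2 farthest ones, for Elovl6 0.22 and 0.62, for Fasn 0.31 and -0.21, and for Acly -0.49 and 0.04, so these values depended on 2 libraries.

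**Figure D4:**
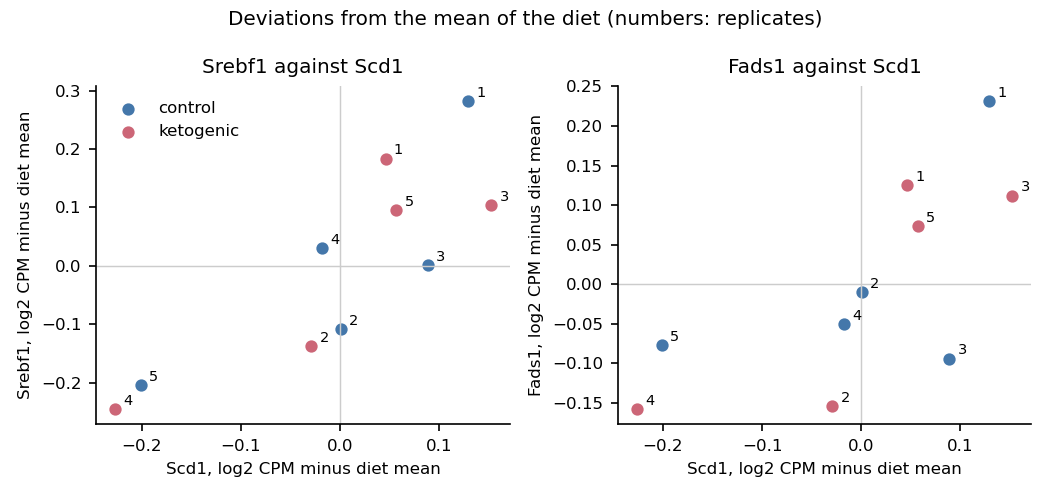
Deviation of each library from the mean of its diet (log2 CPM) in Srebf1 and in Fads1 (vertical axes) against that in Scd1 (horizontal axes), control blue and ketogenic red, numbered by library. Srebf1 follows Scd1 with r = 0.84 and Fads1 with r = 0.70 over the 10 libraries, with control library 1 at the upper right and ketogenic library 4 at the lower left of both panels.

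Around the 10 genes, 51 others of the same pathway were looked up by role, of which 45 could be tested, and 2 were called, both of them higher after ketogenic feeding, where 0.809% of all genes tested were called higher and 0.527% lower. The median of the 45 log2 fold changes was 0.03. In the supply of acetyl-CoA and NADPH, 1 of 6 was called, Idh1, a cytosolic source of NADPH (log2 fold change 0.23, SE 0.05, adjusted p = 0.0470, 1426 ± 91.9 against 1668 ± 66.5 normalized counts). The median of that list was 0.29, with Slc25a1, Acss2 and Me1 at 0.35, 0.36 and 0.38 without passing. None of the 6 genes of malonyl-CoA and its control was called (median 0.10, Prkaa1 0.10, adjusted p = 0.204).

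None of the 9 tested partners in elongation was called (median 0.01). Hsd17b12, the ketoacyl reductase of every elongation cycle, had the smallest p (0.15, adjusted p = 0.0805), and its diets did not overlap. Desaturation draws electrons from cytochrome b5, and none of the 5 tested genes of that list was called (median 0.10, Cyb5b 0.15, adjusted p = 0.109). Fads3, the third desaturase of the Fads family, had 532 ± 48.5 on control and 572 ± 101 on ketogenic diet (adjusted p = 0.661). In mitochondrial fatty acid synthesis none of 6 was called (median 0.15, Cbr4 0.21, adjusted p = 0.293).

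Among regulators, 1 of 13 tested was called. It was Insig1, which holds the SREBP proteins in the endoplasmic reticulum and is itself a target of SREBP, with 395 ± 36.6 on control and 517 ± 42.3 on ketogenic diet (log2 fold change 0.39, SE 0.08, adjusted p = 0.0442). Srebf2, the relative of Srebf1 that drives cholesterol synthesis, had 676 ± 120 and 941 ± 176 normalized counts (0.48, adjusted p = 0.110). Nr1h3, the LXR alpha receptor that induces Srebf1 and Scd1 in liver, had 744 ± 63.7 and 590 ± 52.9 and a log2 fold change of -0.34 that missed the threshold (adjusted p = 0.0568). Mlxipl, the carbohydrate-responsive factor ChREBP, had at most 9 reads per library. Srebf2, Nr1h3, Mlxipl, Slc25a1, Acss2, Me1, Fads3, Scd3 and Scd4 were named after their values had been seen.

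Cholesterol synthesis and uptake, which shares its acetyl-CoA and its SREBP control with the fatty acid pathway, is set beside it. All 20 genes of that list had a positive log2 fold change, with a median of 0.36. The lowest, Tm7sf2 at 0.01, also named after its value had been seen, was smaller than the shift that upper quartile factors gave to the median of all genes (-0.0210 against -0.0057). Among them 5 of 20 rose, against the 0.809% of all genes called higher. They included Sqle (log2 fold change 1.05, adjusted p = 0.0221), Msmo1 (0.62, adjusted p = 0.0118) and Hmgcs1 (0.43, adjusted p = 0.0096), all enzymes of cholesterol synthesis, and Cyp51 (0.88, adjusted p = 0.0405), which was named after its values had been seen. Of the 10 genes of fatty acid synthesis and desaturation, Fads1 alone had the same direction and passed the test, and the difference between the 2 groups of genes was not tested.

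**Figure D5:**
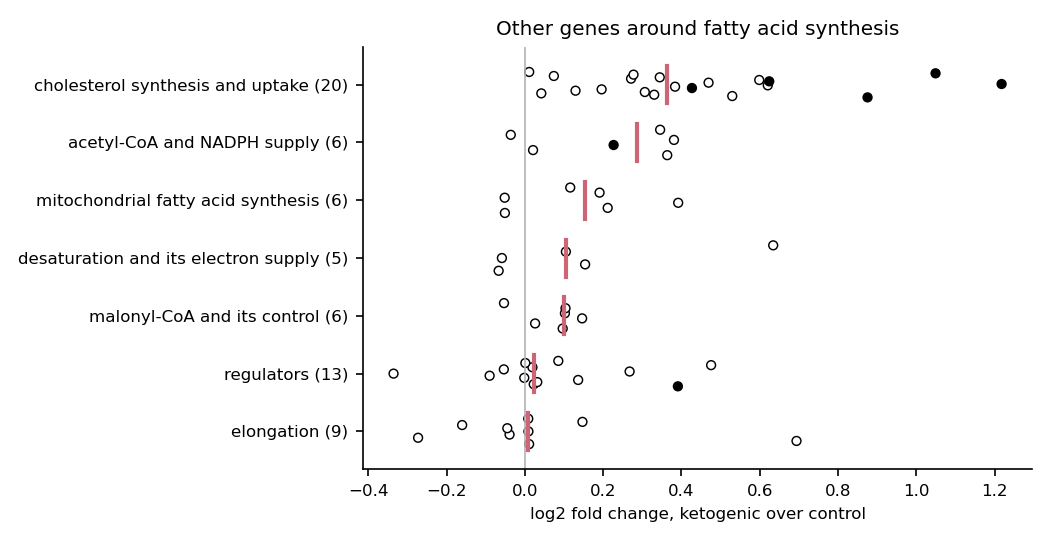
Log2 fold change, ketogenic over control, of tested genes in 7 lists around fatty acid synthesis (number tested in brackets), 1 point per gene, filled where the adjusted p was under 0.05, with the median of each list as a red line. The cholesterol genes all lie above 0 with 5 filled points, while the other lists hold 2 filled points, Idh1 and Insig1.

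Promoter sequence of RefSeq (GRCm38.p6, 300 bases around each start) was at hand for 7 of the 10 genes with 9 promoters; Scd1, Scd2 and Fads1 had no entry. The sterol regulatory element TCACNCCAC, searched on both strands, was in 0 of the 9, where 1.24% of all 32851 promoters hold it. The E-box CACGTG was in 1 (Elovl5), against 7.15% of all. CCAAT was in 5 (of Acly, Elovl5, Fasn and Srebf1), against 37.4%, and GGGCGG in 4 (of Acly, Fads2 and Srebf1), against 35.7%. These are matches of letters in a short window.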

How the data were processed

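The authors deposited raw counts of reads per gene and the same counts as RPKM values, that is, scaled to gene length and to counted reads. Libraries were made from 10 ng RNA with a SMART-Seq v4 kit and sequenced as single reads of 50 bases. The submitters' processing notes name bcl2fastq 2.17.1.14, STAR 2.3, HTSeq 0.6.0 and mm10; the annotation release and any removal of duplicate reads are not given in the sources used here. The study tested genes with DESeq2. Symbols, positions and exon lengths came from GENCODE M21, where 46488 of 46983 identifiers were found, 37902 of them with the same version.

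Here, counts were normalized by TMM and tested with edgeR 4.0.16 (filterByExpr at its defaults, quasi-likelihood F-test, Benjamini-Hochberg over 15949 genes) in R 4.3.3. The standard error is the log2 fold change divided by the root of F. On simulated data of this comparison with 200 genes changed by 1 on the log2 scale, edgeR recovered 184 with 9 false calls among 15724 genes tested. DESeq2 recovered 187 with 30 false calls. The changed genes were drawn from those above a minimum mean count, so recovery of smaller changes or of sparser genes was not tested. Log2 CPM values used a prior count of 2, and permutations enumerated all 14400 regroupings within the diets (two-sided). Alternatives were DESeq2 size factors, upper quartile factors, library size alone, no filter, at least 10 counts in every library, the DESeq2 1.42.0 Wald test, limma 3.58.1 after a log2 transform of RPKM plus 1 or plus 0.1, a replicate block, marker scores (mean z-scores) as covariates, each library left out in turn, another prior count of 0.5 and, chosen after seeing the data, counts corrected for used start positions and M21 exon lengths. Named are the 10 genes, from each pathway list the called genes (at most 4, smallest p first) or else the gene of smallest p, and the most abundant marker of each cell type; others, including marker genes near 0, are marked in the text or named for a count, and 1 gene that meets this rule is not reported here. Members and lists were chosen with earlier results of these data known. Depth varied little, from 10885154 to 12710861 counts, and Acaca (85 to 130 reads) and Elovl6 (103 to 223) had the largest standard errors of the 10 genes.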

Additional observations from a re-analysis of the deposited data

Results flagged for a closer look

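Within each diet, the highest or lowest of the 5 libraries was compared with its nearest neighbour, relative to the range of the group, for each of the 10 genes. Of 20 groups, 4 passed the critical ratio of 0.71, where chance flags about 1 in 20. Control library 4 had a normalized count of 280.0 for Fasn, with the next at 217 and the lowest at 212. Control library 5 had 128 for Elovl6, with the next at 115. Ketogenic library 3 had 219 for Elovl6, with the next at 165. Control library 1 had 851 for Fads1, with the next at 719.8. These 4 values came from 4 different libraries.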

How the results depend on the processing

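The number of genes called, 213, was 816 with DESeq2 (441 higher, 375 lower, against 129 and 84), 113 with the replicate block, 45 with the cardiomyocyte score, 17 with the adipocyte score, and 86 (without control library 2) to 492 (without ketogenic library 2) when 1 library was left out. Of the 10 genes, 2 were called, against 4 with DESeq2, 1 with either score and 1 to 3 when 1 library was left out. The cardiomyocyte score ran from -1.38 to 0.333 on control and from -0.620 to 1.30 on ketogenic diet. The adipocyte score ran from -1.36 to 0.0248 and from -0.197 to 1.83. Both scores leaned with the diet, so these fits cannot fully separate a score from the diet. Same-numbered libraries did not deviate together (correlations -0.134 to 0.0936). Such correlations cannot show whether libraries were paired, and the paper describes the control mice as littermates, so pairing is unknown. With the replicate block 2 of the 10 genes were called, and Scd1 had an adjusted p of 0.0154 and Fads1 of 0.0423. Acly turned to -0.0099 with upper quartile factors, -0.0157 with the cardiomyocyte score, -9.32e-05 with the adipocyte score and, with 1 library left out, lay between -0.0049 and 0.0193 (negative without control library 1 or 2 or ketogenic library 4), and Scd2 to -0.0270 with the cardiomyocyte score. The number of pairs with Scd1 that passed, 1, was 0 to 2 when 1 library was left out. The cause of these changes was not tested. Scaling moved the median of all genes by less than 0.1 on the log2 scale.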
